A study of Homo sapiens with 3 samples.

Results

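MYH6, MYH7 and MYH7B, the cardiac myosin heavy-chain genes, were followed across human chambered cardiac organoids (CCOs) by their rows in the merged count table, which are 3 of the 32738 genes listed. CCOs were grown from H7, a human embryonic stem cell line, with no genetic change, and were dissociated at D8, D14 and D21 for droplet 3′ single-cell RNA libraries, which tag each mRNA with the barcode of its cell and with a unique molecular identifier (UMI). All 3 days share 1 protocol, in which the GSK inhibitor CHIR99021 and then IWP-2 were given to the monolayer, cells were aggregated in Matrigel on day 7, fed a medium with thrombin, cardiotrophin-1, EGF, FGF-2, Wnt-3A and EDN1, and moved on day 14 to a spinner flask with RPMI and B27 alone. Each day is represented by 1 library, so the effects of library, day and medium cannot be told apart. Days could not be tested against each other, and the intervals cover counting error only. The number of organoids in each library is not given in the sources used here, and all cells come from 1 cell line.

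Sarcomeric myosin heavy chains form the thick filament of striated muscle, and their motor domains hydrolyse ATP to pull on actin. MYH6 encodes the fast alpha isoform, which is abundant in the atria and in the early heart tube, while MYH7 encodes the slower beta isoform, which predominates in the human ventricle. MYH7B is an older relative that is transcribed in heart and slow muscle, largely without giving protein in the heart.

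The 3 genes share a feature that the count table does not measure. Each carries a microRNA in an intron on its own strand, a group known together as the myomiRs, and the mature sequences are shown because they tie the loci together. Their RefSeq sequences (GRCh38.p14) are given 5′ to 3′ with the seed in capitals.
miR-208a-3p, in MYH6, chr14:23388602-23388623, minus strand: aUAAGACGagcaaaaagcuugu
miR-208b-3p, in MYH7, chr14:23417997-23418018, minus strand: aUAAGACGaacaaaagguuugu
miR-499a-5p, in MYH7B, chr20:34990408-34990428, plus strand: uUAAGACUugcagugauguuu
The seeds in the MYH6 and MYH7 introns were identical, and 19 of 22 positions of those mature forms were equal. The seed in MYH7B matched them at 6 of 7 positions, and it lies in an intron of 2 of the 7 coding transcripts of that gene. Libraries of this kind capture polyadenylated mRNA and not mature microRNAs, so the levels below are those of the host genes.

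MYH6 (chr14:23381990-23408277) and MYH7 (chr14:23412738-23435718) lie next to each other on the minus strand, while MYH7B (chr20:34975403-35002437) is on the plus strand of another chromosome (GRCh38). MYH6 and MYH7 are the closest pair and their coding sequences are closely alike, so it was asked whether counts of the 3′ end can separate them. A stretch of 60 coding bases near the stop codon is shown for each gene from the GENCODE v29 transcripts (GRCh38), with capitals at the bases where MYH6 and MYH7 differ and, for MYH7B, at the bases that differ from MYH6.
MYH6: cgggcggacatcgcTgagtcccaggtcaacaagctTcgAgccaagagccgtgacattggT
MYH7: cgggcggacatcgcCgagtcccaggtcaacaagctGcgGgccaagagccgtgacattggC
MYH7B: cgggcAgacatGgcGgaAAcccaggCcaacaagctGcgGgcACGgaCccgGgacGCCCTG
MYH6 and MYH7 differed at 4 of these 60 bases and MYH7B differed from MYH6 at 19. Over the last 1000 bases of each transcript, 8 of 901 windows of 100 bases (0.888%) were identical between MYH6 and MYH7, against 5.29% over the whole MYH6 transcript, and none was shared with MYH7B. The counts were made on hg19, so these figures describe the sequences and not the authors' read assignment.

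For D8, D14 and D21 in turn, the table holds 3563, 4615 and 9149 barcodes. Those with over 2000 and under 7500 genes and with mitochondrial UMIs under 10% were kept, which left 2657, 3585 and 1946 cells with a median depth of 15316, 12282 and 14105.5 UMIs. At D21 the mitochondrial limit alone removed 1982 barcodes, against 11 at D8 and 204 at D14. Of the barcode sequences, 136 were present in more than 1 library, 33 of them among kept cells. Kept cells were clustered together without the 3 genes and without the genes of the lists described below. The cardiomyocyte markers, several of them sarcomeric, were not left out. Clusters with at least 3 of these markers (TNNT2, TTN, ACTN2, ACTC1, PLN, HSPB7, CSRP3, NEBL, TNNC1 and RYR2) at 2-fold or more were called CM-like. They held 487 of the D8 cells (18.3%), 1090 of the D14 cells (30.4%) and 539 of the D21 cells (27.7%), and nearly all CM-like cells of a day lay in a cluster of that day. The class depended on the settings. At D8 346 cells were taken by a gate on marker levels and 955 with 3000 variable genes, and at D21 36 cells with a mitochondrial limit of 5%. As a measure of free RNA, the levels in unnamed clusters marked by endoderm genes were used, with 258, 208 and 306 cells. Their median depth was 23580.5, 20518.5 and 21929.5 UMIs, against 14437, 12239.5 and 12758 in CM-like cells. The D21 endoderm-marker cells came from a different cluster than those of D8 and D14. Of the endoderm-marker cells, 2, 2 and 7 met the gate on marker levels, so these pools include some barcodes with high cardiomyocyte markers. Levels are given as CPM, the UMIs of a gene per 1000000 UMIs of the pool, and since a UMI is counted per molecule at its 3′ end they were not divided by gene length.

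MYH6 was the dominant heavy chain of CM-like cells on every day. Its level at D8 was 1092 CPM, with a 95% interval of 1070 to 1116. It reached 4083 CPM (4051 to 4116) by D14 and 8905 CPM (8837 to 8974) by D21, and it moved from the 140th to the 19th and then to the 9th most abundant gene of the pool. The log2 ratio was 1.90 from D8 to D14 (1.87 to 1.93) and 1.12 from D14 to D21 (1.11 to 1.14), or 3.03 over the whole period. The last value ran from 2.35 with CM chosen by the gate to 3.88 with 3000 variable genes. With every cell thinned to 4000 UMIs, MYH6 was detected in 75.8%, 98.0% and 99.8% of CM-like cells on the 3 days (88.5%, 99.5% and 100% unthinned). The endoderm-marker cells held 27.7, 86.2 and 312 CPM of MYH6, and 4.65%, 21.2% and 63.1% of them had a UMI after thinning. Per cell, their median was 0, 40.3 and 246 CPM of MYH6 and their highest value 1406, 3220 and 6423 CPM. The summed MYH6 of CM-like cells was therefore always far above the summed level of endoderm-marker cells. A MYH6 UMI in a D21 cell did not by itself mark a myocyte.

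MYH7 was close to absent at D8 and had the steepest course. CM-like cells held 27 MYH7 UMIs in all at D8, or 3.42 CPM (2.25 to 4.97), 398 at D14, or 27.4 CPM (24.8 to 30.3), and 4624 at D21, or 636 CPM (618 to 654). Unlike MYH6, most of its rise fell in the second interval, 8.03-fold from D8 to D14 and 23.2-fold from D14 to D21 (log2 4.54, 4.39 to 4.69). Over the whole period the log2 ratio was 7.54, between 6.71 and 8.23 under the alternatives tried. With 1 count added it ranked 24th from the top among 8956 genes at 10 CPM or more on either day. MYH6 ranked 230th and MYH7B 67th. At D8 MYH7 and MYH7B were under 10 CPM, so they were among these genes only through D21. Their high ranks follow in part from that filter. In thinned cells MYH7 was detected in 1.44%, 6.61% and 51.4% of the CM-like class (3.90%, 13.3% and 68.8% unthinned), against 0 of 258, 0 of 208 and 8.17% of the endoderm-marker cells, where the exact binomial upper bounds on the counts of 0 are 1.42% and 1.76%. Summed without thinning, the endoderm-marker cells held 0, 0.209 (1 UMI) and 27.0 CPM.

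MYH7B took the opposite timing, with its larger step first. Its 26 UMIs at D8 made 3.29 CPM (2.15 to 4.82). By D14 it had reached 68.5 CPM (64.3 to 72.9) and by D21 169 CPM (160 to 179), the latter being 325 CPM with a mitochondrial limit of 5%, which left 36 CM-like cells. The log2 ratio was 4.38 (3.82 to 5.00) from D8 to D14 and 1.30 (1.18 to 1.42) from D14 to D21, the latter running from 0.84 at resolution 1.2 to 2.73 with the limit of 5%. The D8 UMIs lay in 26 different cells. At D14 it exceeded MYH7, and at D21 it lay below it. The share of CM-like cells with a UMI after thinning was 1.23%, 19.5% and 41.9% (5.34%, 40.8% and 75.9% unthinned), against 0.388%, 0.962% and 2.29% of the endoderm-marker cells.

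**Figure D1:**
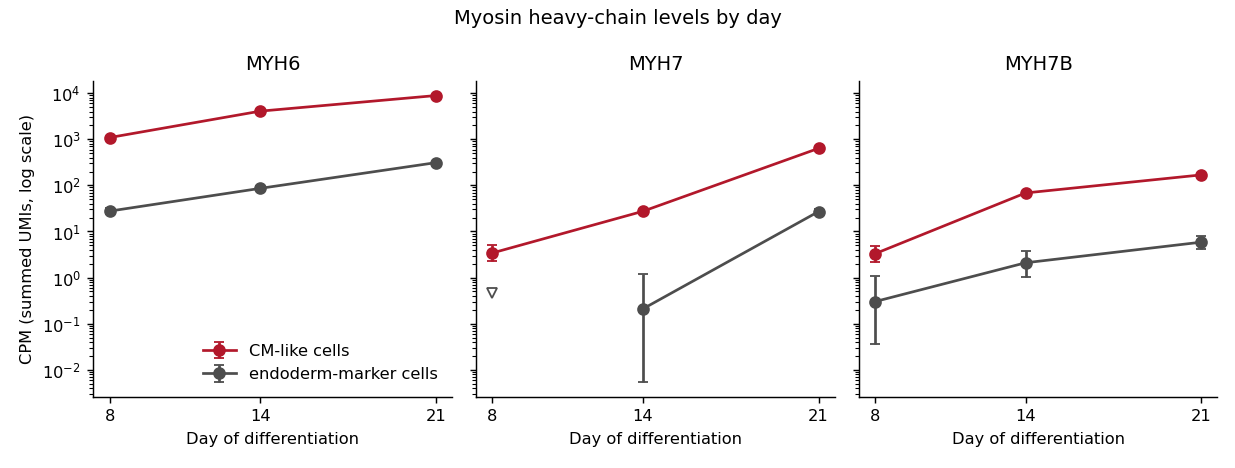
Level of each heavy chain in CM-like cells (red) and in endoderm-marker cells (grey) against the day of differentiation, as CPM of summed UMIs on a log axis, with 95% Poisson intervals for counting error and 1 library per day. The open triangle marks the level of 3 counts for MYH7 in endoderm-marker cells at D8, where no UMI was counted. MYH7 climbs most steeply after D14 and MYH7B before it, while MYH6 stays the highest throughout.

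The low level of the heavy chains outside CM-like cells was set beside that of the cardiomyocyte markers. The part of free RNA in it was not tested. In endoderm-marker cells MYH6 stood at 2.53% of its CM-like level at D8, 2.11% at D14 and 3.50% at D21. The 10 cardiomyocyte markers had medians of 3.38%, 2.57% and 3.58%, with ranges of 1.06% to 7.80%, 1.11% to 5.87% and 2.59% to 5.30%. At D21 MYH7 stood at 4.25% and MYH7B at 3.47%, so that all 3 genes were inside the marker range. Earlier values rest on few background UMIs, with MYH7B at 9.15% on 2 UMIs at D8 and MYH7 at 0.763% on 1 UMI at D14.

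CM-like cells were 27.7% of kept cells at D21 and held 79.1% of MYH6, 79.6% of MYH7 and 79.9% of MYH7B UMIs. Named classes without cardiomyocyte markers were low, with 359 CPM of MYH6 and 22.5 CPM of MYH7 in D21 cardiac fibroblast-like cells. Among dividing cells the levels were uneven. A D14 and D21 cluster of dividing cells held 5308 CPM of MYH6 and 497 CPM of MYH7 in its 36 D21 cells, whereas the other D21 dividing cluster (117 cells) held 438 and 37.6 CPM. An unnamed D21 cluster of 58 cells held 5408 CPM of MYH6, 245 CPM of MYH7 and 120 CPM of MYH7B. Its median depth was 19310.5 UMIs. It had 0 of the 10 cardiomyocyte markers at 2-fold or more over the other D21 cells pooled, CM-like cells among them. This does not mean that it lacked these markers. Doublets were not removed, and their part in these clusters was not tested. At D8, 41 of the 67 MYH7B UMIs lay outside CM-like cells, at 1.05 CPM.

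Within CM-like cells of D21, the small cluster 17 differed from the main cluster 5 in the balance of the genes. It held 51 cells with a median depth of 8452 UMIs, against 12975 in cluster 5. MYH7B was higher there at 312 CPM against 159, while MYH6 was lower at 6314 against 9134 and summed MYH7 lower at 412 against 655. Single cells gave another order for MYH7. Among cells with at least 20 UMIs of MYH6 plus MYH7, the median percent from MYH7 was 5.19% in cluster 17 and 1.36% in cluster 5. No MYH7 was counted in 8 of 49 such cells of cluster 17 and in 150 of 476 of cluster 5.

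The balance of the pair is given by the MYH7 share, the percent of MYH6 plus MYH7 UMIs that came from MYH7, which does not depend on library depth. CM-like cells gave 0.312% (0.206 to 0.453) at D8, 0.667% (0.603 to 0.736) at D14 and 6.66% (6.48 to 6.85) at D21. With a mitochondrial limit of 5% the D14 share was 0.389%. MYH6 therefore still supplied most of the pair at D21. Cells outside the CM-like class gave 0.451% (0.206 to 0.854), 0.650% (0.500 to 0.831) and 6.47% (6.12 to 6.83). At D21 a large part of their UMIs came from the unnamed cluster of 58 cells (6205 of 17137 for MYH6 and 281 of 1185 for MYH7) and the 36 dividing cells (3278 and 307), both high in MYH6. In the endoderm-marker cells of D21 it was 7.98% (6.96 to 9.10), whose interval lay just above that of CM-like cells. Barcodes over the mitochondrial limit gave 4.91% (4.83 to 4.99) at D21. Endothelial-like cells of D21 gave 19.2%, but 43 of their 53 MYH7 UMIs came from 1 cell, and without it the share was 6.54% (3.18 to 11.7).

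**Figure D2:**
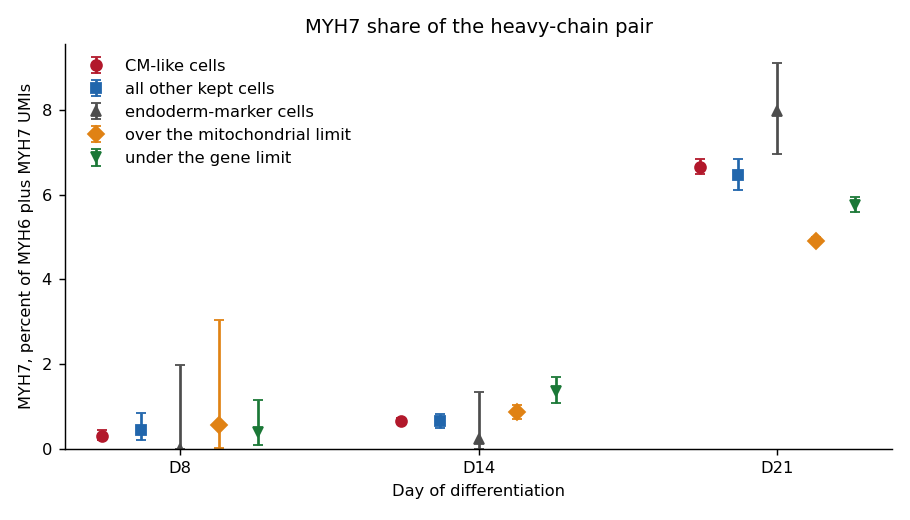
MYH7 as a percent of MYH6 plus MYH7 UMIs at D8, D14 and D21 in CM-like cells, all other kept cells, endoderm-marker cells, barcodes over the mitochondrial limit and barcodes under the gene limit, with exact binomial 95% intervals for counting error. The share stays under 2% in every group up to D14 and lies between 4.91% and 7.98% in every group at D21.

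The summed share at D21 came from unlike cells. Among the 525 CM-like cells with at least 20 UMIs of the pair, the median share was 1.75%, the upper quartile 7.79% and the highest value 79.6%. No MYH7 was counted in 158 of them, while 110 were above 10%, 34 above 25% and 10 above 50%. The SD over cells was 11.8 percentage points, against 2.56 from counting alone. The tenth of CM-like cells with the most MYH7 (54 cells) held 58.9% of its UMIs, compared with 20.5% for MYH6 and 35.1% for MYH7B. At D14, 776 of 907 cells held no MYH7 and 2 were above 50%, with an SD of 3.40 points against 1.18. At D8 the SD of 0.986 points was close to the 0.908 from counting.

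**Figure D3:**
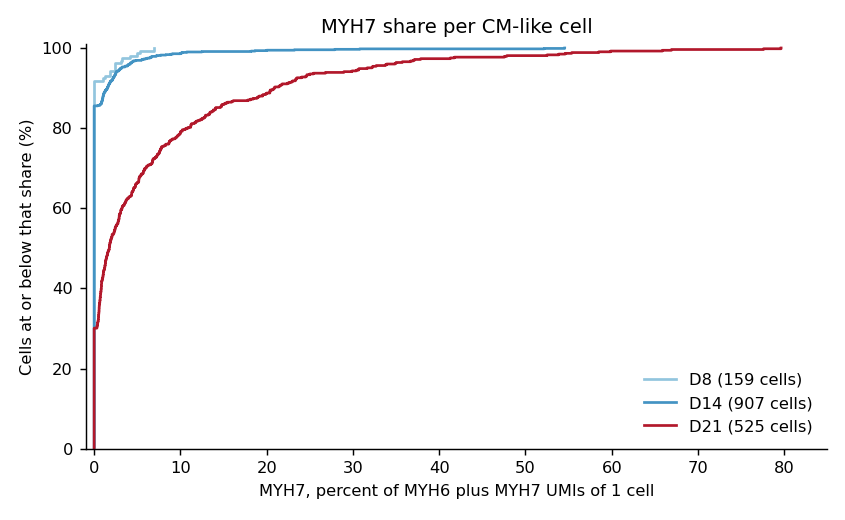
Cumulative percent of CM-like cells (vertical) at or below a given MYH7 share of that cell (horizontal, percent of MYH6 plus MYH7 UMIs), for cells with at least 20 UMIs of the pair at D8 (159), D14 (907) and D21 (525). The D21 curve leaves the others and reaches out to 79.6%.

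Few CM-like cells held MYH7 without MYH6, which was found in nearly every cell from D14 on and so left little room for any other outcome. After thinning, 276 of the 539 CM-like cells of D21 (51.2%) had UMIs of both genes, 262 (48.6%) of MYH6 alone, 1 of MYH7 alone and none of neither. At D14 the numbers were 69, 999, 3 and 19 of 1090. At D8 they were 7, 362, 0 and 118 of 487, so 24.2% of CM-like cells had neither at this depth. In the 306 endoderm-marker cells of D21, 20 had both, 173 MYH6 alone and 5 MYH7 alone.

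To describe what else differed along the MYH7 share, the D21 cells of cluster 5 with at least 20 UMIs of the pair were ordered by the share and cut into 3 groups of 159, 159 and 158 cells, a division chosen after the values of the members were known. MYH7 made up 0.0444% of the pair in the low-share group, 1.60% in the middle group and 18.1% in the high-share group. The last cell inside the high-share group was at 4.47% and the first outside it at 4.44%. The groups were alike in depth (median 12333, 12957 and 13581.5 UMIs) and mitochondrial UMIs (median 8.40%, 8.62% and 8.42%). The difference in MYH7 itself, and the lower MYH6 of the high-share group (7746 against 9848 CPM), follow at least in part from how the cells were ordered. Of 8236 genes at 10 CPM or more in either end group, 122 (1.48%) were 2-fold or more higher in the high-share group and 104 (1.26%) were 2-fold or more lower. The same ordering was applied to D21 barcodes at 10% or more mitochondrial UMIs that met a gate on the cardiomyocyte markers, which are other barcodes of the same library. These made groups of 601, 600 and 600 with shares of 0%, 1.06% and 13.8%, and 71 of 8268 genes (0.859%) were higher and 34 (0.411%) lower by the same rule. Of the 226 genes, MYH7 among them, 186 had the same direction in these barcodes and 55 were again 2-fold or more. The share with the same direction over all genes tested was not computed, and the 2-fold calls take no account of counting error. Some leading genes of cluster 5 did not repeat. ISL1 (1 and 24 UMIs) had log2 4.39 in cluster 5 and 0.16 above the limit, and GDF15 2.61 and 0.35. TOP2A had 2.36 and -0.75, and PCDH17 -2.59 and 0.05.

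Of the 5 listed ventricular genes other than MYH7, MYL2 was 2-fold or more higher beside MYH7 and the others were not. MYL2, the ventricular regulatory light chain, stood at 291 CPM in the low-share group, 269 in the middle and 1123 in the high-share group (log2 1.95, 1.82 to 2.08), and a MYL2 UMI was found in 50.9%, 62.9% and 84.8% of cells. In the barcodes above the mitochondrial limit MYL2 went from 122 to 700 CPM (log2 2.52). CSRP3, a Z-disc LIM protein linked to mechanical sensing and one of the markers that defined the class, went from 307 to 740 CPM (log2 1.27), and from 257 to 624 above the limit. HOPX, a homeodomain cofactor that restrains growth-related transcription in the heart, rested on 4 and 55 UMIs, or 1.94 and 23.3 CPM, with 2.52% and 15.2% of cells holding a UMI, and on 3.51 and 18.1 CPM above the limit. The other ventricular genes differed less. IRX4, a ventricular transcription factor, had 94.7 and 103 CPM (log2 0.12, -0.15 to 0.40), HEY2 79.2 and 99.1 CPM, HAND1 57.3 and 69.8 CPM (log2 0.28), and MYL3 8652 and 11300 CPM (log2 0.39).

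Natriuretic peptide genes parted. NPPB, which encodes the stress-responsive B-type peptide and was picked out after its values were seen, went from 20.4 to 238 CPM (log2 3.55, 3.09 to 4.03), and it reached 166 CPM in the high-share group above the limit (log2 3.79). Its UMIs lay in 6.92% of cells of the low-share group and 19.0% of the high-share group, so most high-share cells held none. ANKRD1, a stretch-induced ankyrin repeat protein, and FHL1 were also picked out afterwards. ANKRD1 went from 175 to 409 to 862 CPM over the 3 groups, and FHL1, a LIM protein of the sarcomere, from 8.26 to 36.4 CPM. NPPA, the atrial peptide, had 518 CPM in the low-share group and 198 in the high-share group (log2 -1.39, -1.55 to -1.23), yet the share of cells with a UMI was 35.2% and 41.1%, and without the cell with most NPPA in each group the levels were 378 and 135 CPM. Other atrial genes were lower in the high-share group on few UMIs, with KCNJ3, a subunit of the atrial acetylcholine-activated potassium channel, at 17.5 and 5.50 CPM, HEY1 at 11.7 and 4.23 CPM, and NR2F2, an atrial nuclear receptor, at 14.6 and 2.96 CPM. Above the mitochondrial limit KCNJ3 and HEY1 were again lower (log2 -0.81 for each), whereas NR2F2 was not (log2 -0.09, -0.52 to 0.34).

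MYH7B stood at 156 CPM in both end groups (log2 interval -0.22 to 0.22) and at 186 and 181 CPM above the limit (log2 -0.04, -0.15 to 0.07). TNNT2, the cardiac troponin T, had 9281 and 8983 CPM. FRZB and CXCL14, a secreted Wnt antagonist and a chemokine picked out after their values were seen, were lower beside MYH7, with FRZB at 31.6 and 2.12 CPM and CXCL14 at 52.0 and 1.69 CPM. For CXCL14, 70 of the 107 UMIs of the low-share group came from 1 cell, without which its level was 18.1 CPM.

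**Figure D4:**
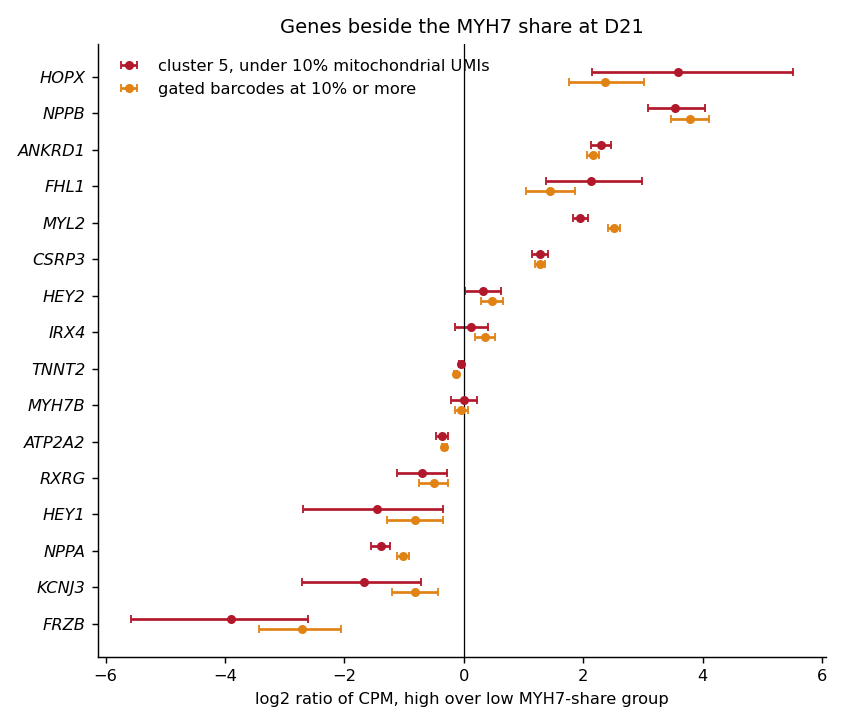
Log2 ratio of CPM between the high and the low MYH7-share group of D21 for 16 genes, in cluster 5 (red) and in gated barcodes at 10% or more mitochondrial UMIs (orange), with exact 95% intervals for counting error and a line at 0. HOPX, NPPB, ANKRD1, FHL1, MYL2 and CSRP3 lie to the right in both sets, NPPA, KCNJ3, HEY1 and FRZB to the left, and MYH7B at 0. The 16 genes are a choice, and leading genes of cluster 5 that did not repeat, such as ISL1 and TOP2A, are not drawn.

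At D14 most cells held no MYH7, so the 145 CM-like cells with a MYH7 UMI were set beside the 945 without. This division takes in deeper cells, with a median of 14201 against 12000 UMIs. NPPB stood at 241 against 11.8 CPM (20.5-fold) and ANKRD1 at 783 against 124 CPM (6.32-fold). NPPB UMIs lay in 11% of the cells with MYH7 and 5.61% of the others, ANKRD1 UMIs in 46.9% and 20.6%, and leaving out the cell with most NPPB gave 165 CPM for it. MYL2 was scarce in both, at 5.50 and 3.21 CPM. FHL1 had 29.2 and 30.9 CPM (log2 -0.08, -0.47 to 0.29) and FRZB 134 CPM in both (log2 interval -0.18 to 0.17), where the same division at D21 gave log2 1.21 for FHL1 and -2.02 for FRZB. NPPA was higher in cells with MYH7 at D14 (450 against 116 CPM, log2 1.95). The same division of the D21 CM-like cells gave 271 against 552 CPM (log2 -1.02). It set 371 cells against 168, with a median of 13062 against 11687 UMIs. Unthinned, 0.481% of endoderm-marker cells held a MYH7 UMI at D14 and 36.3% at D21. The division was therefore not alike on these days. The share of cells with an NPPA UMI was higher with MYH7 on both days, at 31.7% against 20.3% and 43.1% against 35.7%. MYH7B stood at 60.1 and 70.1 CPM and MYH6 at 4325 and 4036.

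The partners of the heavy chains were described through lists. From D8 to D14, 943 of 9063 genes at 10 CPM or more on either day (10.4%) were 2-fold or more higher in CM-like cells and 215 (2.37%) were lower. From D14 to D21 the numbers were 465 of 9140 (5.09%) and 1359 (14.9%). From D8 to D21 they were 1068 of 8956 (11.9%) and 1344 (15.0%). MYH6, MYH7 and MYH7B were among the higher genes in each of these comparisons. A gene under 10 CPM on 1 day entered a comparison only through the other day, as MYH7 and MYH7B did in those with D8. From D14 to D21 at resolution 1.2, MYH6 (log2 0.89) and MYH7B (log2 0.84) were under 2-fold, as was MYH6 with a mitochondrial limit of 5% (log2 0.93), with the gate (0.91) and over all cells (0.95).

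Light chains, which sit on the neck of the heavy chain, were 2-fold or more higher from D8 to D21 for 5 of the 10 tested (median log2 1.56, against -0.12 over all genes tested), and 1 was lower. Without the filter on low genes, 6 of 13 were higher and 3 lower (median log2 0.50, against -0.23 over all genes tested). MYL7, the atrial regulatory light chain, went from 2649 to 9384 to 23569 CPM, and MYL4, the atrial essential light chain, from 1389 to 3729 to 8564. MYL3, the ventricular essential light chain, went from 136 to 2095 to 9663. MYL2 had 2 UMIs at D8, 3.58 CPM by D14 and 547 CPM by D21. Atrial and ventricular light chains were thus present together at D21.

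Thick-filament and M-band partners were higher from D8 to D21 for 6 of 7 tested and none was lower (median log2 2.84). Among these, TRIM63 and MYLK3 were under 10 CPM at D8 and passed the filter only through D21. Without the filter on low genes, 7 of 13 were higher and 1 lower (median log2 1.12). MYBPC3, cardiac myosin-binding protein C, went from 21.9 to 115 to 494 CPM and MYOM1, the M-band protein myomesin, from 21.1 to 141 to 337. TRIM63, a muscle ubiquitin ligase that targets heavy chains, went from 1.90 to 17.3 to 132 CPM. Of the 7 folding and methylation genes, 2 were higher and 1 lower from D8 to D21. SMYD1, a muscle methyltransferase that binds nascent myosin, had 106, 152 and 305 CPM, and UNC45B, the muscle myosin chaperone, 93.9, 109 and 184, under 2-fold overall. HSP90AA1, a general chaperone, fell by 1.42 on the log2 scale to D14 and was 1.16 higher from there to D21.

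Of 21 tested regulators of the heavy-chain genes, 7 were higher and 1 lower from D8 to D21 (median log2 0.58). TEAD4, a factor of the MCAT motif, went from 4.30 to 21.2 CPM, and TBX5, an early cardiac T-box factor, from 4.18 to 29.7. RXRG, a partner of thyroid hormone receptors, went from 4.30 to 75.9 to 45.0 CPM, and KLF9, a thyroid-responsive gene, from 3.54 to 17.2 to 52.4. The thyroid receptors were low, with THRA at 45.6 CPM and THRB at 5.64 CPM at D21. MEF2C was the lower one, at 612, 468 and 72.6 CPM.

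The 6 ventricular genes listed, MYH7 among them, were higher from D8 to D21, with IRX4 going from 0.633 to 93.5 CPM and HEY2 from 5.19 to 84.8. Of 8 tested atrial genes 5 were higher and 3 lower, and SLN, the atrial sarcolipin, went from 195 CPM to 5 UMIs (0.687 CPM). TNNI1, the slow skeletal troponin I of the fetal heart, had 7898 CPM at D21. TNNI3, the adult cardiac form, had 42.8, 96.2 and 23.6 CPM on the 3 days, so it was lower at D21 than at D14. Endoderm-marker cells held 62.4, 73.0 and 2.13 CPM of TNNI3, so it was not restricted to CM-like cells. Of the 6 tested genes of the troponin and maturation list 4 were higher and 1 lower.

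The other sarcomeric heavy chains gave a check of the class. MYH1, MYH2, MYH3, MYH4, MYH8, MYH13 and MYH15, of skeletal and specialised muscle, all stayed under 10 CPM on every day, the highest being MYH2 at 3.58 CPM at D14. The skeletal muscle factors were at or near 0 in CM-like cells, with no MYOG or MYF5 UMI on any day and 2 MYOD1 UMIs in all, while PAX3, a factor of muscle progenitors and neural crest, had 11, 36 and 5 UMIs (2.48 CPM at D14). Of 4 smooth and non-muscle heavy chains 2 were tested and MYH10 was lower from D8 to D21. The non-muscle MYH10 had 133, 86.9 and 59.7 CPM and MYH9 58.5, 77.8 and 30.2, while MYH11, of smooth muscle, had 4.95 CPM at D21.

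As the MCAT factors were among the regulators, the 250 bases before the MYH6 start in RefSeq are shown (GRCh38.p14, chr14:23408274-23408523, minus strand), with the matches to GGAATG, the core of the MCAT motif, and to TATAAA in capitals.
MYH6, before its start: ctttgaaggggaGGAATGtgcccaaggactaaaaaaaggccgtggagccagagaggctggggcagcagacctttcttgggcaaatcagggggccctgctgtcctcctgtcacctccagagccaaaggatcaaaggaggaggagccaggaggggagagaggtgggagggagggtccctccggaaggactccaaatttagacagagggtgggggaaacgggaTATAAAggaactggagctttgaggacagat
On both strands GGAATG matched at 1 place and is held by 11.9% of 35116 RefSeq windows of the same length, and TATAAA matched at 1 place, 30 bases before the start, and is held by 10.7%. AGATAA for GATA factors, AGGTCA for the thyroid receptor site and CANNTG for the E-box were not in this window and are held by 9.17%, 12.1% and 61.8%.

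The genes whose level followed each heavy chain most closely were found over 20 units of cluster and day with at least 50 cells, by Pearson's r of log2(CPM + 10) among 5253 genes. The units share libraries and many are not myocytes, so these values are descriptive. For MYH6 they were MYL4 (r 0.991), SMPX (0.990), MYL7 (0.987), ACTC1 (0.980) and PLN (0.980). For MYH7 they were HSPB3 (0.996), LINC00881 (0.987), SH3BGR (0.985), TRIM63 (0.985) and TCAP (0.979), and for MYH7B LRRC10 (0.983), CKMT2 (0.980), MLIP (0.980), LMOD2 (0.977) and A4GALT (0.971). These names depended on the measure: by Spearman's rho 3 of the 5 were kept for MYH6, 0 for MYH7 and 0 for MYH7B, where FITM1 and LAMB2 came first for the latter genes, and with log2(CPM + 1) 3 of 5 were kept for each. The members were less alike, with r of 0.857 for MYH6 and MYH7, 0.864 for MYH6 and MYH7B and 0.916 for MYH7 and MYH7B.

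The mitochondrial limit bore on D21 most, since kept cells held 20.4% of all MYH6 UMIs of that library, 25.3% of MYH7 and 19.4% of MYH7B, while barcodes removed by the mitochondrial limit alone held 63.0%, 56.9% and 54.7%. Barcodes that met the gene limits and a gate of at least 5000 CPM summed over the 10 cardiomyocyte markers were therefore set out by mitochondrial content, with levels per 1000000 non-mitochondrial UMIs. MYH6 stood at 3174 CPM in the 71 barcodes under 5%, 8710 in the 627 from 5% to 10%, 11975 in the 1495 from 10% to 20% and 15797 in the 306 from 20% to 40%. TNNT2 had 4980, 8434, 8432 and 7832 CPM in the same bins. MYH7 went 186, 627, 617 and 831 and MYH7B 173, 156, 200 and 312, and the MYH7 share was 5.55%, 6.71%, 4.90% and 5.00%. The gate did not match the CM-like class. Of the 698 gated D21 barcodes under 10%, 537 were CM-like and 7 were endoderm-marker cells. The bins may therefore differ in the cells they hold, which was not tested. What sets the mitochondrial content of these barcodes was not tested either.

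**Figure D5:**
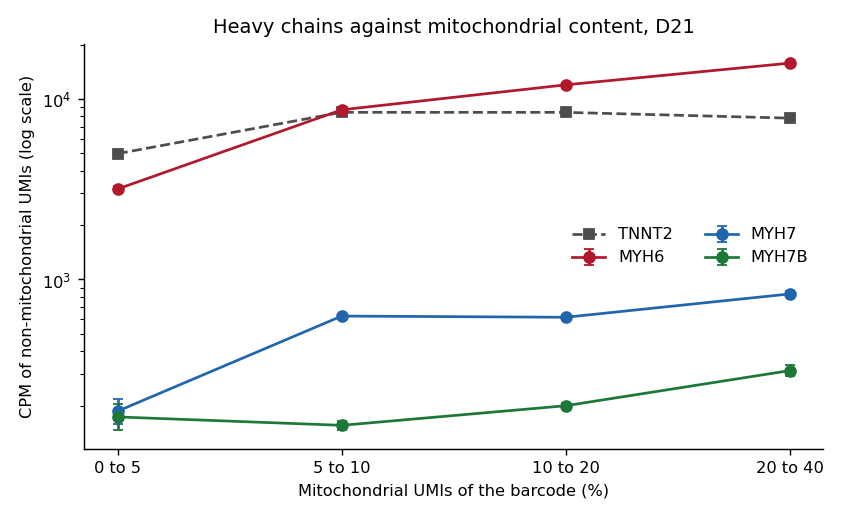
Heavy chains and TNNT2 in gated D21 barcodes against their mitochondrial content in percent of UMIs, as CPM of non-mitochondrial UMIs on a log axis, with 95% Poisson intervals for counting error on the heavy chains. MYH6 is at 3174 CPM in the first bin and 15797 CPM in the last, while TNNT2 lies between 7832 and 8434 CPM from 5% upward.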

How the data were processed

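Dissociated H7 chambered cardiac organoids were profiled as 1 Chromium 3′ v2 library per day. The values the authors deposited are unnormalized UMI counts, for every gene and barcode in 1 merged table that precedes their cell filter, and column endings gave the day. The submitters' processing notes name Cell Ranger, Seurat 3.2.1 and hg19. The box genome is GRCh38, used for sequences only.

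Genes needed a UMI in at least 10 barcodes (20394 of 32738). Of 2000 variable genes, 1957 were used after leaving out the members and the genes of the lists, but not the cardiomyocyte markers. Clustering used 20 principal components and a resolution of 0.8 in Seurat 5.3.0 (R 4.3.3, Matrix 1.6.5). A cluster was named at 3 or more markers 2-fold or more higher with 10 CPM added, and 2 markers ahead of any other class. The comparison was with all other kept cells, pooled, of the day on which the cluster had most cells. UMIs were summed per day and class, with exact Poisson intervals for levels and exact binomial ones for shares (scipy 1.17.1, Python 3.11.15, numpy 2.4.6, pandas 2.3.3, matplotlib 3.10.9). TMM factors for an alternative came from edgeR 4.0.16. A gene was called higher or lower at 2-fold or more with 1 count added, among genes at 10 CPM or more in either pool. Doublets were kept, as Scrublet (scanpy 1.11.5, anndata 0.12.19) marked 2 D8, 5 D14 and 69 D21 cells, too few at D8 and D14 for the caller to have worked.

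Named genes were the 3 members, the genes of the lists and the 5 genes most like each member, and others were picked after their values were seen. The members and lists were chosen with earlier results of these data known. Alternatives were other mitochondrial limits, resolutions, numbers of variable genes, gates, scalings and denominators. For the lists the alternative was no filter on low genes.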

Additional observations from a re-analysis of the deposited data

Results flagged for a closer look

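The summed level of NPPA differed in direction between days when CM-like cells with a MYH7 UMI were set beside those without. The log2 ratio was 1.95 at D14 and -1.02 at D21, and the difference between these days was not tested. The division set 145 against 945 cells at D14 and 371 against 168 at D21, so it was not alike. The share of cells with an NPPA UMI was higher with MYH7 on both days, at 31.7% against 20.3% and 43.1% against 35.7%.

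Barcodes outside the gene limits, which the comparisons leave out, also held the heavy chains above the level of 3 counts. In the 878 barcodes under the gene limit at D8, MYH6 stood at 367 CPM and MYH7B at 3.85 CPM. In the 820 at D14 MYH6 stood at 3335 CPM, MYH7 at 46.3 CPM and MYH7B at 87.8 CPM. In the 5221 at D21 MYH6 stood at 7574 CPM, MYH7 at 463 CPM and MYH7B at 234 CPM. Above the gene limit, MYH6 stood at 107 CPM in 17 barcodes at D8 and at 227 CPM in 6 at D14.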

How the results depend on the processing

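With 1 library per day no library could be left out. No paired analysis was possible because each group has 1 sample. No log2 ratio of a member between days changed sign under the alternatives run. Shares and levels have no sign to change, so for them only the size of a move can be read. The alternatives did not cover the division by MYH7, the contrast of clusters 5 and 17 or the mitochondrial bins. The main results were the MYH6 and MYH7 ratios of D21 over D8, the D21 MYH7 share and the D21 MYH7B level. For these, 31 alternative values lay inside the counting interval of the main setting and 29 outside. For the MYH6 ratio 2 lay inside and 13 outside. The log2 ratio of MYH6 from D8 to D21, 3.03, was 2.92 at resolution 0.4, 3.88 with 3000 variable genes, 2.97 with all variable genes kept, 2.38 with a mitochondrial limit of 5%, 3.21 with a limit of 20% and 3.21 with none. It was 2.35 with the gate, 3.55 over all cells, 3.85 without the 5% of cells with the highest doublet scores, 3.198 with median-of-ratios scaling, 3.195 with TMM scaling, 3.10 per non-mitochondrial UMI and 2.94 as a mean over cells. That of MYH7, 7.54, was 8.23 with 3000 variable genes, 6.71 with the gate and 8.18 without the high doublet scores. The D21 MYH7 share of 6.66% was 6.46% at resolution 0.4, 5.68%, 5.76% and 5.28% with limits of 5%, 20% and none, and 6.33% as a mean over cells. MYH7B at D21, 169 CPM, was 325, 185 and 186 CPM with those limits, 145 with the gate, 49.7 over all cells, 187 and 185 with median-of-ratios and TMM scaling and 183 per non-mitochondrial UMI. The causes were not tested. The D8 levels of MYH7 and MYH7B rest on 27 and 26 UMIs, which limits their ratios to later days.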
